A study of Mus musculus with 9 samples.

Results

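The oligodendrocyte lineage genes described here are *Olig1*, *Olig2*, *Sox8*, *Sox10*, *Pdgfra*, *Cspg4* and *Gpr17*, which are 7 of the 51912 genes in a table of normalized counts from the embryonic mouse midbrain. They were given by name and found by matching their Ensembl identifiers to symbols in the GRCm38 annotation, and all 7 matched. RNA of micro-dissected midbrains of C57Bl/6 embryos at E14.5 was sequenced in 9 libraries, 3 for each genotype of the homeobox gene *Nkx2.9*. *Nkx2.9*+/+ libraries (columns 7 to 9 of the table) came from wild type embryos, *Nkx2.9*LacZ/+ libraries (columns 4 to 6) from heterozygous embryos, and *Nkx2.9*LacZ/LacZ libraries (columns 1 to 3) from embryos with both alleles replaced. In the LacZ allele a reporter with a nuclear localization signal takes the place of the first exon, and it is a germline allele, so every tissue of the embryo carries it. According to the methods each library held a pair of pooled midbrains, so no value belongs to a single embryo. The columns of the table give the genotype but no replicate number.

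Oligodendrocytes make the myelin of the central nervous system, and they descend from precursor cells that leave the ventricular zone of the neural tube and divide as they migrate. In the ventral neural tube these precursors come from progenitors that Sonic hedgehog has patterned and that express *Olig2*. OLIG2 and OLIG1 are basic helix-loop-helix transcription factors, SOX10 and SOX8 are transcription factors with an HMG box, PDGFRA is the receptor through which PDGF drives precursor division, CSPG4 (NG2) is a surface proteoglycan of the precursors, and GPR17 is a G protein-coupled receptor of precursors committed to differentiate. None of these genes is private to the lineage: *Olig1* and *Olig2* are used in ventral progenitors, *Sox8* in glial progenitors, *Sox10* in neural crest and Schwann cells, *Pdgfra* in meningeal fibroblasts and *Cspg4* in pericytes.

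The members include 2 pairs of paralogs, and their most alike coding stretches are shown because reads from such stretches could be hard to assign between paralogs. In each pair the in-frame window of 90 bases with the most identical positions is printed from the GRCm38 genome in the sense of the gene, with the bases that differ within the pair in capitals. In the HMG box region, *Sox10* (chr15:79163309-79163398, minus strand, exon 2) and *Sox8* (chr17:25570130-25570219, minus strand, exon 1) shared 79 of 90 bases, or 87.8%.
Sox10: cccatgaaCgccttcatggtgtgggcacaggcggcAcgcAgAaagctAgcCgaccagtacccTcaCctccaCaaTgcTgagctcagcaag
Sox8: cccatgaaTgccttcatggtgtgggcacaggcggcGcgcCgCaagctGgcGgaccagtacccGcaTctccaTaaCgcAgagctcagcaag
In the helix-loop-helix region, *Olig2* (chr16:91226712-91226801, plus strand, exon 2) and *Olig1* (chr16:91270147-91270236, plus strand, exon 1) shared 74 of 90 bases, or 82.2%.
Olig2: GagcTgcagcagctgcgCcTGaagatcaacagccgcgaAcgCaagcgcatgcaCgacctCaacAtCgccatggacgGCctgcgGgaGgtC
Olig1: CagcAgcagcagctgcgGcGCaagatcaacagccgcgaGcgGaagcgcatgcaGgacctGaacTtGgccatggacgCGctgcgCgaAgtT
Over the whole transcripts used, the longest run identical between paralogs was 26 bases for the *Sox* pair and 17 bases for the *Olig* pair. The methods give paired-end reads longer than either run, so a read of full length reaches past any such run. Differing bases lie unevenly along the windows, and the *Sox* window itself holds an identical run of 26 bases.

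The genes lie on 6 chromosomes of GRCm38. *Olig2* (chr16:91225457-91228677, plus strand, exons of 2.53 kb) and *Olig1* (chr16:91269772-91271933, plus strand, 2.16 kb) are neighbours 41.1 kb apart. *Sox8* is at chr17:25565892-25570686 (minus strand, 3.12 kb), *Sox10* at chr15:79154908-79165240 (minus strand, 3.05 kb), *Pdgfra* at chr5:75152292-75198215 (plus strand, 10.02 kb), *Cspg4* at chr9:56865033-56899870 (plus strand, 11.9 kb) and *Gpr17* at chr18:31942997-31949636 (minus strand, 5.20 kb). Genes on the opposite strand share exon bases with 4 of the members, and since the strand setting of the counting is not given in the sources used here, their reads may not be separable. The shared stretch was 329 bases of *Sox8* (10.6% of its exon bases), 188 bases of *Gpr17* with *Lims2*, and 157 bases of *Olig1*, and *Pdgfra* shared 456 bases with *Gm42802* and 166 bases with *Gm42803*. Those partners had few reads themselves, between 0 and 37 over the 9 libraries.

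Libraries held between 1692963 and 5942192 reads on genes (median 4921748), and the shallowest were column 7 (*Nkx2.9*+/+, 1692963 reads) and column 4 (*Nkx2.9*LacZ/+, 2584074 reads). One read was therefore worth 2.59 normalized counts in column 7 and 0.702 in column 8. *Nkx2-9* itself had 28 reads in all, and they were not fewer in the libraries labelled LacZ/LacZ (4, 6 and 3 reads) than in those labelled +/+ (0, 2 and 2 reads) or LacZ/+ (0, 7 and 4 reads), so the targeted gene goes against the labels. The counts are per gene and do not tell reads in the replaced first exon from reads in the rest, and so few reads cannot settle the genotypes. LacZ/LacZ, LacZ/+ and +/+ therefore stand throughout for the libraries labelled so, and every direction given rests on those labels. The series title speaks of cortex, whereas the sample labels and the methods give midbrain. The midbrain markers *En2* and *Gata3* had mean normalized counts of 291.7 and 503.8. The genotypes also differed in the X-inactivation transcript *Xist*, with 4607 to 5182 normalized counts in all 3 LacZ/LacZ libraries, 14.52 to 2929 in LacZ/+ libraries and 47.1 to 4342 in +/+ libraries. Summed counts of 4 Y-linked genes were at most 2.26 in LacZ/LacZ libraries but reached 1058 in LacZ/+ and 1075 in +/+ libraries, so the sex of the pooled embryos and the genotype cannot be fully told apart.

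All 7 genes were detected in every library, at very different levels. Per kb of exon, the scale on which genes can be compared, *Olig1* was the highest at a mean of 51.1 normalized counts per kb ± 8.67 (SD, n = 9). *Sox8* (25.2 ± 4.35) and *Olig2* (24.6 ± 5.03) came next and did not differ beyond their spread, as *Sox8* was the higher of the pair in 5 of 9 libraries. *Pdgfra* (6.80 ± 1.05) and *Cspg4* (6.11 ± 1.34) followed, again without a clear order (6 of 9 libraries). *Sox10* (3.90 ± 1.85) and *Gpr17* (3.77 ± 1.55) were the lowest, and their ranges overlapped each other and that of *Cspg4*. The order had only 2 clean steps, where every library of the higher gene lay above every library of the lower one: from *Olig1* to *Sox8* and from *Olig2* to *Pdgfra*. Against 13323 protein-coding genes with tested values, the wild type mean per kb of *Olig1* was above 74.2% of them, those of *Olig2* and *Sox8* were above 48.3% and 45.2%, and those of *Pdgfra*, *Cspg4*, *Gpr17* and *Sox10* were above 20%, 18.1%, 15.0% and 12.2%. In bulk tissue a low level does not tell fewer cells with the transcript from less transcript per cell.

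**Figure D1:**
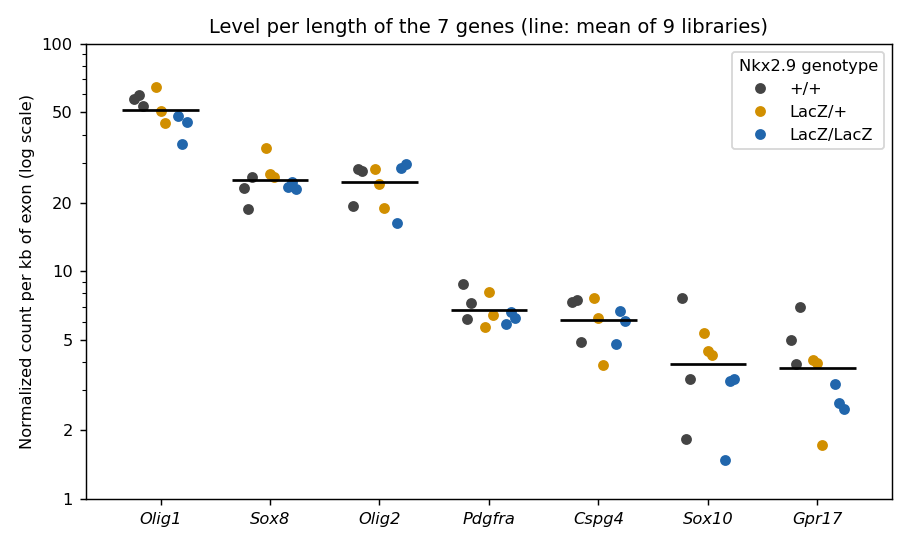
Normalized count per kb of exon on a log axis for the 7 genes, with 1 point per library coloured by the *Nkx2.9* genotype and a line at the mean of the 9 libraries. *Olig1* stands above all others, *Sox8* and *Olig2* share a middle level, and the remaining 4 genes lie lower with overlapping ranges.

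Of the *Olig* pair, *Olig1*, whose product acts in precursor differentiation and myelin repair, had 104, 78.7 and 97.9 normalized counts in the LacZ/LacZ libraries, 140, 109 and 97.1 in the LacZ/+ libraries, and 124, 128 and 116 in the +/+ libraries. Every LacZ/LacZ library lay below every +/+ library, and the LacZ/+ libraries lay 1 within the LacZ/LacZ range, 1 between the ranges and 1 above both. The mean was 93.5 ± 13.2 (SD, n = 3) in LacZ/LacZ against 123 ± 6.54 (SD, n = 3) in +/+, and the log2 fold change on the log2(normalized count + 1) scale was -0.40 (SE 0.18, 95% confidence interval -0.79 to -0.01). The unadjusted limma p was 0.0453, the Benjamini-Hochberg adjusted p over 16993 genes was 1.00, and the exact permutation p was 0.1, the smallest that 3 libraries against 3 can give. Neither the *Olig1* difference of LacZ/+ from +/+ (log2 fold change -0.10, interval -0.49 to 0.29) nor that of LacZ/LacZ from LacZ/+ (-0.30, interval -0.68 to 0.09) exceeded the spread.

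*Olig2*, which specifies the ventral progenitors from which motor neurons and precursors arise, had 41.4, 72.3 and 74.7 normalized counts in LacZ/LacZ, 71.7, 61.5 and 48.1 in LacZ/+, and 49.1, 71.6 and 69.9 in +/+ libraries. In every genotype the lowest library was between 41.4 and 49.1 and the highest between 71.6 and 74.7, so the groups overlapped throughout. Means of 62.8 ± 18.6, 60.4 ± 11.8 and 63.5 ± 12.5 (SD, n = 3 each) left a LacZ/LacZ to +/+ log2 fold change of -0.04 with a 95% interval of -0.60 to 0.51. That interval still holds a change of either sign of about the size measured for *Olig1*.

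Of the *Sox* pair, *Sox8* was the only member with a higher mean in LacZ/LacZ than in +/+ libraries. Its normalized counts were 73.0, 76.8 and 72.1 in LacZ/LacZ, 109, 83.7 and 80.8 in LacZ/+, and 72.4, 58.9 and 81.0 in +/+ libraries. The LacZ/LacZ libraries lay close together inside the wild type range, and the LacZ/+ libraries lay above all LacZ/LacZ libraries, with the shallow column 4 the highest. The log2 fold change was 0.07 (interval -0.34 to 0.49) for LacZ/LacZ against +/+, and -0.29 (interval -0.70 to 0.13) for LacZ/LacZ against LacZ/+. For LacZ/+ against +/+ it was 0.36 (interval -0.06 to 0.78), with an unadjusted limma p of 0.0852 and an exact permutation p of 0.2.

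*Sox10*, the factor that drives the myelin genes in committed cells, was counted on 6 to 16 reads per library and 102 reads in all. It had 4.52, 10.1 and 10.3 normalized counts in LacZ/LacZ, 16.3, 13.7 and 13.1 in LacZ/+, and 23.3, 5.61 and 10.3 in +/+ libraries. The wild type libraries spread over nearly the whole range, from above the lowest LacZ/LacZ library to above all the others, and the highest of them, column 7, rested on 9 reads. LacZ/LacZ libraries lay below LacZ/+ libraries without overlap, with a log2 fold change of -0.79 whose interval ran from -1.88 to 0.30. Against +/+ the LacZ/LacZ value was -0.47 (interval -1.56 to 0.63), and without column 7 it was 0.031. For LacZ/+ against +/+ it was 0.32 (interval -0.77 to 1.42), and these intervals were the widest of the 7 genes.

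Among the surface proteins of the precursors, *Pdgfra* had 58.7, 66.8 and 62.7 normalized counts in LacZ/LacZ, 57.0, 81.1 and 64.5 in LacZ/+, and 87.9, 61.8 and 72.9 in +/+ libraries. The LacZ/LacZ libraries lay in a narrow band at the lower end of the other ranges. The log2 fold change of LacZ/LacZ against +/+ was -0.23 (SE 0.21, interval -0.67 to 0.22), or -0.10 without column 7 and -0.35 without column 8, that of LacZ/+ against +/+ was -0.13 and that of LacZ/LacZ against LacZ/+ was -0.09. *Cspg4* had 57.2, 79.6 and 72.1 normalized counts in LacZ/LacZ, 91.3, 74.3 and 46.5 in LacZ/+, and 87.9, 89.1 and 58.2 in +/+ libraries. Its lowest library in each genotype was at or below 58.2, and the ranges overlapped in all 3 comparisons. The LacZ/LacZ to +/+ log2 fold change of *Cspg4* was -0.16 with an interval of -0.70 to 0.39.

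*Gpr17*, which marks the step from dividing precursor to premyelinating cell, had the largest LacZ/LacZ to +/+ difference of the 7 genes on the log2 scale. It had 16.6, 13.7 and 12.9 normalized counts in LacZ/LacZ, 21.2, 20.5 and 8.97 in LacZ/+, and 25.9, 20.4 and 36.1 in +/+ libraries. These values rested on 15 to 22 reads per library in LacZ/LacZ, 11 to 24 in LacZ/+ and 10 to 49 in +/+. All LacZ/LacZ libraries lay below all +/+ libraries, while the LacZ/+ libraries spread from below the first to within the second. Means were 14.4 ± 1.93 in LacZ/LacZ, 16.9 ± 6.86 in LacZ/+ and 27.4 ± 7.98 in +/+ (SD, n = 3 each). The log2 fold change of LacZ/LacZ against +/+ was -0.86 (SE 0.39, 95% interval -1.68 to -0.03), a ratio of 0.553, with an unadjusted limma p of 0.0425, an adjusted p of 1.00 and an exact permutation p of 0.1. For LacZ/+ against +/+ it was -0.72 (interval -1.54 to 0.10), with p = 0.0820 by limma before adjustment and 0.3 by the exact permutation test, and for LacZ/LacZ against LacZ/+ it was -0.14 (interval -0.96 to 0.69). The LacZ/+ to +/+ value was -0.34 without column 6, the lowest LacZ/+ library, and -1.03 with *Xist* as a covariate.

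**Figure D2:**
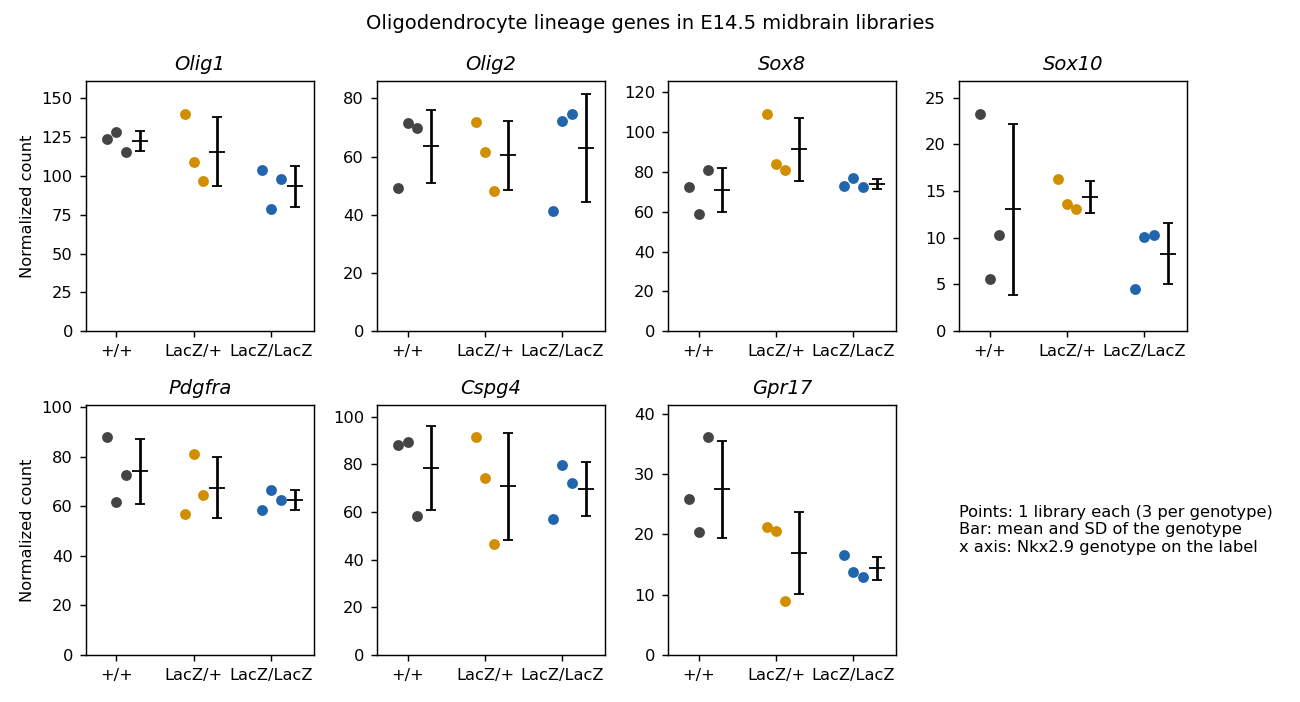
Normalized counts of the 7 genes by *Nkx2.9* genotype, with 1 point per library and the mean and SD of the 3 libraries beside them; each panel has its own axis from 0. The LacZ/LacZ points lie below all +/+ points for *Olig1* and *Gpr17*, and these 2 genotypes overlap for the other 5 genes.

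LacZ/LacZ libraries by their labels had a lower mean than +/+ libraries for 6 of the 7 genes, with a median log2 fold change of -0.23 against 0.01 for the 16993 genes tested, of which 47.7% were lower. The median was -0.10 without column 7 and -0.13 without column 1, each with 5 of 7 lower, and -0.35 without column 8 (6 of 7 lower) or column 9 (5 of 7 lower). By limma, 2 of 7 passed an unadjusted p of 0.05 (*Olig1* and *Gpr17*, both lower), where 2.60% of all genes passed in either direction and 1.22% passed as lower. In numbers of genes, 207 passed as lower and 234 as higher. The groups did not overlap in the same 2 of 7 genes, where 9.52% of all genes did not overlap. No member passed the adjusted threshold, and 0% of all genes did. With the log2 of total reads or with *Xist* as a covariate 0 of 7 passed, where 450 and 574 of the 16993 genes did. The log2 fold change of *Olig1* was -0.36 with total reads and -0.37 with *Xist*, and that of *Gpr17* was -0.81 with total reads and -0.52 with *Xist*. Leaving out column 2, 3, 7 or 9 also left 0 of 7 past the threshold, and leaving out column 1, 5 or 8 left 1, while 283 to 835 of all genes passed over the fits with 1 library left out.

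In the comparison of LacZ/+ with +/+, 5 of 7 genes were lower and 2 higher (*Sox8* and *Sox10*), with a median log2 fold change of -0.10 against -0.01 for all genes. The median was 0.082 without column 6, with 2 of 7 lower, and -0.20 without column 4, with 5 of 7 lower. By limma 0 of 7 had an unadjusted p under 0.05, where 2.78% of all genes did, and 0 of 7 did not overlap, where 6.91% of all genes did not. For LacZ/LacZ against LacZ/+, 5 of 7 were lower, the median was -0.14 against 0.02 for all genes, 0 of 7 had an unadjusted p under 0.05 (2.64% of all genes), and 2 of 7, *Sox8* and *Sox10*, did not overlap (8.71% of all genes). A limma F test over the 3 genotypes gave an unadjusted p under 0.05 for 0 of 7 members and for 2.11% of all genes, with the smallest values for *Gpr17* (0.0902) and *Olig1* (0.110). The adjusted threshold was passed by 0% of all genes in each of these 3 tests too. For LacZ/LacZ against LacZ/+ the median was 0.041 without column 5 (3 of 7 lower), -0.23 without column 1 (5 of 7 lower) and -0.37 without column 6 (7 of 7 lower). The pairwise comparisons share libraries, so their values for one gene are not independent of each other.

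**Figure D3:**
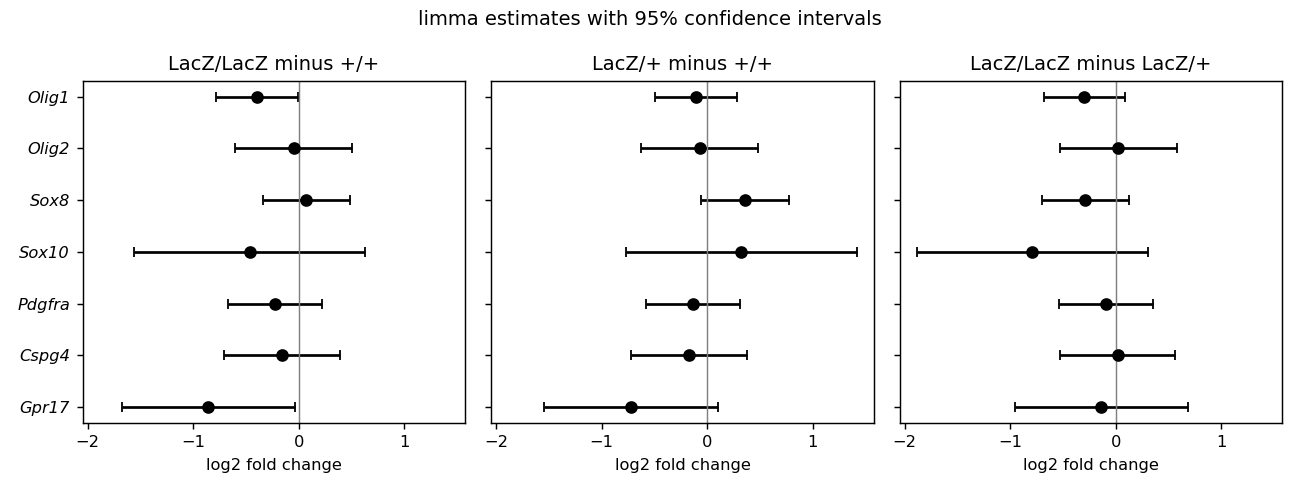
Log2 fold changes of the 7 genes on the log2(normalized count + 1) scale, with limma's 95% confidence intervals, for the 3 pairwise comparisons of *Nkx2.9* genotypes. The intervals of *Olig1* and *Gpr17* end just below 0 for LacZ/LacZ minus +/+, and every other interval includes 0.

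How far the libraries of one genotype lay apart differed between the members. The coefficient of variation within genotypes was 13.9% for *Olig1*, 14.2% for *Sox8* and 15.6% for *Pdgfra*, where counting reads alone would give 9.95%, 11.8% and 12.7%. *Olig2* (23.5%, counting 13.3%) and *Cspg4* (24.4%, counting 12.3%) varied 1.77 and 1.99 times as much as their reads account for, the most of the 7 genes by this ratio. *Gpr17* (31.6%, counting 23.7%) and *Sox10* (47.9%, counting 30.3%) had the widest spread and the fewest reads.

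**Figure D4:**
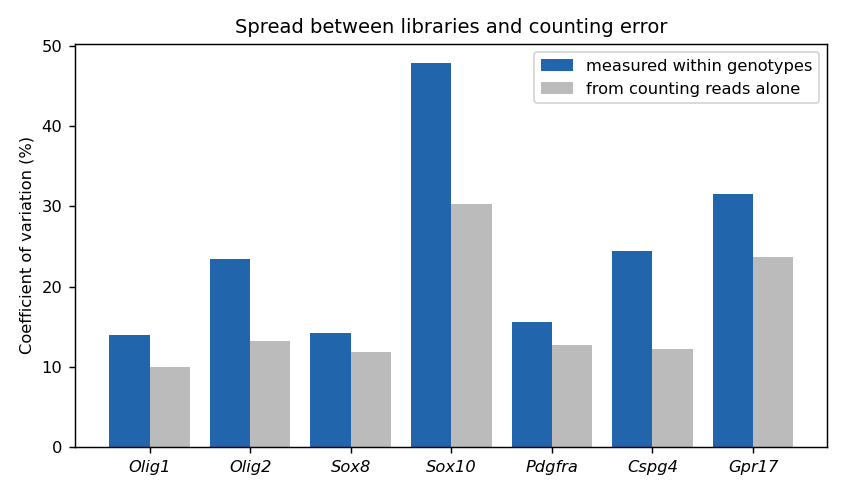
Coefficient of variation of the normalized count between libraries of the same genotype, in percent, beside the value that counting of reads alone would give, for each of the 7 genes. The measured bar is higher for all 7, and *Sox10* and *Gpr17* have the largest bars of both kinds.

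Across libraries the members were weakly related to each other. Pearson's r over the 9 libraries was above 0 for 18 of the 21 pairs of members but had a median of only 0.19, from -0.15 for *Olig2* with *Pdgfra* to 0.62 for *Olig1* with *Gpr17*. These are descriptions over libraries that share depth and genotype differences. The neighbours *Olig2* and *Olig1* gave r = 0.05 (exact permutation p = 0.894) and rho = 0.00 (exact permutation p = 1.00), and r = -0.27 without columns 1 and 6. For the paralogs *Sox10* and *Sox8* r was 0.52 (exact permutation p = 0.143) and rho was 0.42 (exact permutation p = 0.270), and r was 0.92 without columns 1 and 7. Among 5 such relations computed, the smallest p after Benjamini-Hochberg adjustment was 0.344 for r and 0.216 for rho (exact permutation tests). The 2 columns left out of a relation were those farthest from the median of its first-named value, here *Olig2* or *Sox10*. For deviations from the genotype means r was 0.03 for the *Olig* pair and 0.45 for the *Sox* pair.

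Among 11285 protein-coding genes averaging 20 or more normalized counts, those most like each member over the 9 libraries were named by the highest r. They were *Zfp691* (0.95), *Gp1ba* (0.95) and *Lrfn1* (0.92) for *Olig1*, and *Fbxo42* (0.89), *Fstl4* (0.88) and *Bahd1* (0.87) for *Olig2*. *P3h4* (0.95), *Akna* (0.94) and *Hcn3* (0.93) were nearest to *Sox8*, *Car10* (0.94), *Mrpl44* (0.93) and *Spin2c* (0.92) to *Pdgfra*, and *Nup188* (0.96), *Dennd2a* (0.96) and *Usp21* (0.94) to *Cspg4*. No gene of the lineage lists appears among these names. Those lists hold only 59 genes against the 11285 searched, so none was likely to appear and nothing is concluded from it. *Sox10* and *Gpr17* were below the minimum of 20 and were not searched.

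The rest of the lineage program was described with 5 lists of 59 genes, of which 48 reached the minimum mean of 5 normalized counts. Between LacZ/LacZ and +/+ libraries 29 of the 48 were higher and 19 lower, with a median log2 fold change of 0.04, where 52.3% of all genes were higher. An unadjusted limma p under 0.05 was found for 1 of the 48, or 2.08%, against 2.60% of all genes. For LacZ/+ against +/+ 27 were higher and 21 lower (median 0.04, 1 under 0.05), where 48.6% of all genes were higher and 2.78% under 0.05, and for LacZ/LacZ against LacZ/+ 19 were higher and 29 lower (median -0.02, 2 under 0.05), where 46.9% of all genes were lower and 2.64% under 0.05.

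Of 12 lineage transcription factors, all tested, 7 were higher and 5 lower in LacZ/LacZ than in +/+ libraries, where 52.3% of all genes were higher. Among the highest per kb were the Wnt effector *Tcf7l2* (372 normalized counts per kb) and *Nfia* (47.5), which starts gliogenesis. *Sox5*, a SoxD factor that restrains SOX10 in precursors, had 190, 199 and 215 normalized counts in LacZ/LacZ against 111, 155 and 187 in +/+ libraries, a log2 fold change of 0.44 (SE 0.19, limma adjusted p = 1.00), the 1 of these 48 genes under an unadjusted p of 0.05 in that comparison. *Nkx2-2*, the homeobox paralog of *Nkx2.9* that acts in the same ventral progenitors, had a mean of 79.1 normalized counts and a log2 fold change of -0.06, and is named here after its values were seen.

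Among 6 inhibitors of differentiation, 5 were tested and 4 of these were lower in LacZ/LacZ than in +/+ libraries, where 47.7% of all genes were lower. *Lingo1* (153 normalized counts per kb), a membrane protein that holds back myelination, and *Id4* (145) were the highest, followed by *Id2* (44.3), another helix-loop-helix inhibitor. *Id2* had 135, 117 and 131 normalized counts in LacZ/+ against 75.0, 103 and 110 in +/+ libraries, a log2 fold change of 0.42 (SE 0.20, limma adjusted p = 1.00), the 1 gene under an unadjusted p of 0.05 there. *Bmp4*, a ligand that opposes the lineage, had 2 reads in all libraries together. Of 14 ligands and receptors 13 were tested, and 9 were higher and 4 lower in LacZ/LacZ than in +/+ libraries, with none under an unadjusted p of 0.05. Of all genes, 52.3% were higher and 2.60% under 0.05. The insulin-like growth factor receptor *Igf1r* (83.1 per kb), the hedgehog receptor *Ptch1* (47.3) and *Fgfr1* (37.6) were the highest of them.

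Of 9 other precursor surface and matrix genes 7 were tested, with 5 higher and 2 lower in LacZ/LacZ than in +/+ libraries and none under an unadjusted p of 0.05. Among all genes 52.3% were higher and 2.60% under 0.05. *Cacng4* (326 normalized counts per kb), *Ptprz1* (112) and *Vcan* (91.3) were the highest, and neurons or radial glia also use such genes, whereas the precursor enzyme *Neu4* had 0 reads. Of 18 genes of committed precursors and myelin 11 were tested, with 7 higher and 4 lower in LacZ/LacZ than in +/+ libraries (52.3% of all genes higher). *Cnp*, a myelin-associated phosphodiesterase, had 51.9, 54.0 and 64.4 normalized counts in LacZ/LacZ against 84.7, 81.1 and 78.3 in LacZ/+ libraries, a log2 fold change of -0.52 (SE 0.20, limma adjusted p = 0.999). *Mal*, a myelin proteolipid, differed the other way, with 6.02, 17.4 and 7.73 against 0, 2.56 and 4.08 and a log2 fold change of 1.99 (SE 0.74, limma adjusted p = 0.999) on 0 to 19 reads per library. These were the 2 genes under an unadjusted p of 0.05 in that comparison. *Mog* (41.2 normalized counts per kb), *St18* (21.8) and *Cnp* (18.7) were the highest of the list, but *Mog* overlaps the noncoding gene *Gm22388* on the other strand and its reads are uncertain. The late myelin genes *Mobp*, *Opalin* and *Fa2h* had 3, 3 and 2 reads over all 9 libraries.

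**Figure D5:**
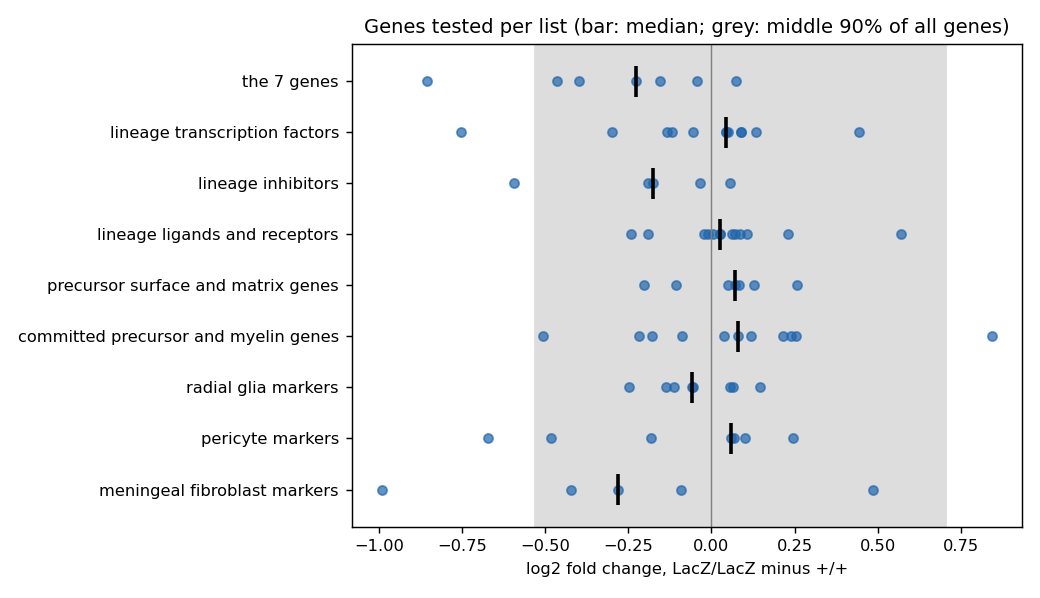
Log2 fold change of LacZ/LacZ minus +/+ on the log2(normalized count + 1) scale for each tested gene of the 7 members, the 5 lineage lists and 3 marker lists, with a black bar at each median and the middle 90% of all 16993 genes in grey. The median of the 7 genes is -0.23, those of the lineage lists lie between -0.17 and 0.08, and that of meningeal fibroblast markers is -0.28.

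Other cells that use these genes were followed by their own markers. Of 9 pericyte markers none was at 0 over all libraries, and their summed normalized counts were 1033 to 1159 in LacZ/LacZ, 1035 to 1191 in LacZ/+ and 1014 to 1173 in +/+ libraries, led by *Notch3* and *Rgs5* (means of 365 and 306). Over the 9 libraries the sum and *Cspg4* gave r = 0.51 (exact permutation p = 0.156) and rho = 0.58 (exact permutation p = 0.108), and r = 0.75 without columns 4 and 7. These 2 columns were left out because they lay farthest from the median sum. For deviations from the genotype means r was 0.53. Of 10 meningeal fibroblast markers none was at 0, and their sums were 187 to 285 in LacZ/LacZ, 200 to 231 in LacZ/+ and 246 to 356 in +/+ libraries, led by *Col3a1* and *Col1a2* (means of 89.9 and 63.1). Within this list *Foxc1* had 10.5, 12.8 and 12.9 normalized counts in LacZ/LacZ, 24.4, 21.3 and 18.8 in LacZ/+ and 25.9, 25.3 and 23.6 in +/+ libraries. The *Foxc1* log2 fold change was -0.99 (SE 0.32) for LacZ/LacZ against +/+ and -0.78 (SE 0.32) against LacZ/+, both under an unadjusted p of 0.05 with limma adjusted p-values of 1.00 and 0.999. Of all genes, 2.60% and 2.64% were under an unadjusted p of 0.05 in these comparisons. Of the 5 fibroblast markers tested, 4 were lower and 1 higher in LacZ/LacZ than in +/+ (median -0.28), but 2 were lower and 3 higher in LacZ/LacZ than in LacZ/+ (median 0.21). The share of all genes that were lower was 47.7% and 46.9% in the same order. *Col1a1* was lower in LacZ/+ than in +/+ by a log2 fold change of -0.77 (SE 0.25), also under an unadjusted p of 0.05 (limma adjusted p = 1.00), where 2.78% of all genes were. The fibroblast sum and *Pdgfra* gave r = 0.46 (exact permutation p = 0.207) and rho = 0.70 (exact permutation p = 0.0433, adjusted over 5 relations 0.216), r = 0.68 without columns 2 and 9, and r = 0.33 for deviations from the genotype means. The part of these cells in the *Pdgfra* and *Cspg4* values was not tested.

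Of the neural crest and Schwann markers, *Foxd3* and *Cdh19* had 6 and 1 reads over all libraries, so these defining markers of those cells were near 0. The sum of this list (1630 to 2204 in LacZ/LacZ, 1338 to 2464 in LacZ/+ and 1824 to 2197 in +/+) was nearly all *Tfap2b* (mean 1832), which midbrain neurons also express, followed by *Ngfr* (63.1), and with *Sox10* it gave r = -0.08 (exact permutation p = 0.846) and rho = -0.03 (exact permutation p = 0.948), and r = 0.13 without columns 4 and 6. Radial glia markers, led by *Tnc* and *Vim* (means of 1327 and 1009), summed to 4373 to 4902, 4717 to 4815 and 4726 to 5123 in LacZ/LacZ, LacZ/+ and +/+ libraries. Motor neuron markers, led by *Isl1* and *Slc5a7* (46.6 and 20.8), summed to 63.1 to 101, 86.4 to 97.1 and 69.2 to 123, with *Mnx1* at 0. Neuron markers, led by *Map2* and *Dcx* (10067 and 6074), summed to 25871 to 26451, 21624 to 28200 and 23903 to 27090 in the same order. Microglia markers, led by *Csf1r* and *P2ry12* (42.3 and 14.2), summed to 77.3 to 108, 68.5 to 78.2 and 78.0 to 93.1, and endothelial markers, led by *Kdr* and *Flt1* (224 and 95.9), to 583 to 675, 611 to 663 and 570 to 667.

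Regional markers were followed in the same way. The 6 midbrain markers summed to 1419 to 1656 in LacZ/LacZ, 1414 to 1934 in LacZ/+ and 1663 to 1851 in +/+ libraries. Every LacZ/LacZ library lay below every +/+ library, but by a narrow gap (1656 against 1663). Taken singly, 9.52% of all genes did not overlap between these genotypes. The log2 fold change of LacZ/LacZ against +/+ was -0.60 (SE 0.25) for *En1* and -0.63 (SE 0.22) for *Pax7*, both under an unadjusted p of 0.05 with limma adjusted p-values of 1.00. Of all genes, 2.60% were under an unadjusted p of 0.05 there. Of the 6 markers 4 were lower and 2 higher, with a median of -0.24, where 47.7% of all genes were lower. These directions too rest on the labels, which the 28 reads of the targeted gene go against but cannot settle. Of 4 cortex markers, *Neurod6* and *Emx1* were the highest (means of 45.0 and 6.79), the sums were 48.1 to 82.0, 47.3 to 64.5 and 20.7 to 51.9, and the *Neurod6* log2 fold change was 0.72 (SE 0.33, under an unadjusted p of 0.05, limma adjusted p = 1.00) for LacZ/LacZ against +/+. Only 2 of the 4 were tested, both higher, where 52.3% of all genes were higher and 2.60% under 0.05. Whether the extent of the dissected region bears on the values of *Olig1* and *Gpr17* was not tested.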

How the data were processed

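Total RNA was freed of ribosomal RNA by the authors, as their methods say (the labels name an mRNA library protocol), and reads were placed on GRCm38/mm10 by HISAT2 before featureCounts assigned them to genes. Tool versions, annotation release and strand setting are not given in the sources used here. The deposited signal is the read count divided by a DESeq2 size factor per library. Deposited tables of genotype comparisons (fold changes and p-values) were not used. Reads were recovered as whole multiples of each library's smallest step, which held for 100% of 210686 values (tolerance 0.1 reads).

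Log2(normalized count + 1) of genes with a mean of at least 5 (16993 genes, all 7 members among them) was fitted with limma 3.58.1 (lmFit, eBayes with trend) in R 4.3.3 over 9 libraries, two-sided, with Benjamini-Hochberg adjustment, and exact permutation tests of 3 against 3 libraries stand beside it. edgeR 4.0.16 and DESeq2 1.42.0 on recovered reads were alternatives. The script was tested on simulated data. The methods say that embryos of an experiment came from few litters, and no source ties a library to a litter, so libraries may share one and p-values measure only the spread between these libraries. No 2 libraries of a genotype agreed within sampling noise (chi-square per degree of freedom 5.33 to 15.6). Lengths and positions came from GENCODE M21, which held 51719 of 51912 identifiers.

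The members and gene lists were chosen with earlier results of these data known. Named were all members, *Nkx2-9*, from each lineage list the 3 genes highest per kb and any with an unadjusted p under 0.05, from each marker list the 2 highest and any under 0.05, and the 3 genes most like each member; genes given only for their few reads were named after their values were seen. Some genes that this rule names are not reported here.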

Additional observations from a re-analysis of the deposited data

How the results depend on the processing

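Over 21 log2 fold changes (7 genes, 3 comparisons) and all alternatives, 388 of 435 values kept their direction and their side of an unadjusted p of 0.05, 25 turned sign, 19 were no longer past it and 3 newly were. The count of members past it for LacZ/LacZ against +/+ was 2. It was 1 with no minimum (*Olig1*), with a minimum of 20 (*Olig1*, with *Gpr17* and *Sox10* untested), without the variance trend (*Gpr17*), by edgeR (*Gpr17*) and by DESeq2 (*Gpr17*), and 0 with total reads or *Xist* as a covariate. It was 0 to 2 with 1 library left out. For LacZ/+ against +/+ the count of 0 was 1 with *Xist* as a covariate, 1 without columns 4 and 7, and 0 to 1 with 1 library left out (*Gpr17* without column 4). The F test over the 3 genotypes gave 1 (*Gpr17*) in place of 0 with *Xist* as a covariate. Over the alternatives the *Olig1* difference of LacZ/LacZ from +/+ lay between -0.48 and -0.28 and was past an unadjusted p of 0.05 in 10 of 21, and that of *Gpr17* lay between -1.04 and -0.52 and was past it in 12 of 20.

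Some small differences turned sign, and the cause was not tested. For LacZ/LacZ against +/+, *Olig2* was 0.085 with *Xist* as a covariate and -0.22 to 0.23 with 1 library left out, *Sox8* was -0.049 to 0.18, and *Sox10* was -0.91 to 0.031 with 1 library left out and 0.031 without columns 4 and 7. For LacZ/+ against +/+, leaving out 1 library gave -0.25 to 0.014 for *Olig1*, -0.24 to 0.082 for *Olig2*, -0.12 to 0.82 for *Sox10* and -0.38 to 0.10 for *Cspg4*, and *Pdgfra* was 0.11 without columns 4 and 7. For LacZ/LacZ against LacZ/+, leaving out 1 library gave -0.13 to 0.30 for *Olig2*, -0.20 to 0.046 for *Pdgfra*, -0.25 to 0.23 for *Cspg4* and -0.51 to 0.064 for *Gpr17*, which was 0.51 with *Xist* as a covariate and 0.064 without columns 4 and 7.

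Among all genes, the count past an unadjusted p of 0.05 was 441 for LacZ/LacZ against +/+ (263 to 1135 over the alternatives), 473 for LacZ/+ against +/+ (242 to 1137), 449 for LacZ/LacZ against LacZ/+ (288 to 1132) and 358 for the F test (202 to 965). The extremes came from the minimum of 20 and from no minimum, which test fewer and more genes. In these fits 0 to 6 genes passed the adjusted threshold. No paired analysis was possible because the columns carry no replicate number. Reads per library limit *Sox10* and *Gpr17* the most, and intervals cover the spread of 3 libraries only.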
